A study of Homo sapiens with 2 samples.

Results

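The genes followed here encode the machinery that shortens the poly(A) tail, removes the cap and degrades mRNA in human cells. They were chosen by name, as 56 members of 8 role groups: the CCR4-NOT complex, PAN2-PAN3 with PARN and the TOB adaptors, the decapping enzyme and its activators, the LSM ring, the XRN exonucleases, the exosome, nonsense-mediated decay, and recruiters with poly(A)-binding proteins. All 56 were found among the 12014 protein-coding genes of the deposited tables, and all 56 had a mean of at least 1 FPKM (fragments scaled by transcript length and by the size of the library), as did 10708 genes in all. The cells were ACHN, a human cell line of renal cell carcinoma, infected with a lentivirus and kept under puromycin to give stable lines. In the shKIAA1429 group the virus carried a short hairpin RNA against KIAA1429, called a knockout in the sample labels and a knockdown in the study's methods, and in the shNC group it carried a control hairpin. Which of the study's hairpins against KIAA1429 was sequenced is not given in the sources used here. Poly(A) RNA from 1 library per group was sequenced. Since 1 library stands for each condition, no difference below has a replicate check or a p-value. In such bulk RNA, less RNA per cell and fewer cells that express a gene cannot be told apart.

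Most cytoplasmic mRNA is thought to be degraded in order. Deadenylases, PAN2-PAN3 and then CCR4-NOT, shorten the poly(A) tail that poly(A)-binding proteins cover. The mRNA is then decapped by DCP2 and digested from its 5′ end by XRN1, or digested from its 3′ end by the exosome. Messages with a premature stop codon enter by nonsense-mediated decay, in which UPF and SMG proteins mark and cut them. KIAA1429 (VIRMA) is a scaffold of the complex that writes N6-methyladenosine (m6A) on mRNA, and readers of that mark can bring CCR4-NOT to the methylated message. The comparison asks how the mRNA levels of these factors differ between cells with the hairpin against KIAA1429 and control cells. m6A itself and mRNA half-lives were not measured in these files.

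The targeted gene, listed as VIRMA, stood at 3.92 FPKM with shNC and at 3.22 FPKM with shKIAA1429, or 82.1% of the control. The renal epithelial markers PAX8, PAX2, KRT8, KRT18 and CDH16 were listed, between 4.29 and 104 FPKM, while 0 of 3 leukocyte and 0 of 3 endothelial markers were listed. The 13 mitochondrial genes held 42.2% of the summed FPKM in shNC and 34.6% in shKIAA1429, and the sums over the other genes were 163587 and 163171. The read depth of the libraries is unknown, because FPKM gives no read count.

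Changes are given as the log2 of (FPKM + 1) in shKIAA1429 over (FPKM + 1) in shNC and are smaller than the plain ratio for genes at low levels. None of the 56 decay factors passed 1.5 on this scale, the limit in the study's methods. There the limit was set on the log2 fold change in DESeq2 along with a p-value limit, so the counts here are not the study's own calls. Over all 10708 genes 0.392% were higher and 0.252% were lower by more than 1.5. At a limit of 0.5, 9 decay factors were higher (CNOT8, TOB1, PATL1, EXOSC8, DIS3, UPF2, UPF3A, UPF3B and SMG1) and 4 were lower (LSM4, PABPC1, EXOSC3 and EXOSC7). These are 16.1% and 7.14% of the members, beside 9.92% and 6.12% of all genes. The split depends on the scaling, with 19 higher and 4 lower members once each library was rescaled to the same sum, where 23.9% and 4.59% of all genes were past 0.5. With the trend on GC content and length removed, 5 members were higher and 6 were lower (8.93% and 10.7%, beside 6.79% and 6.74% of all genes). The median change of the members was 0.09 and that of all genes was 0.06, with 90% of all genes between -0.55 and 0.66. In total 36 members were higher and 20 were lower in shKIAA1429, a share of 64.3% higher beside 57.3% of all genes.

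**Figure D1:**
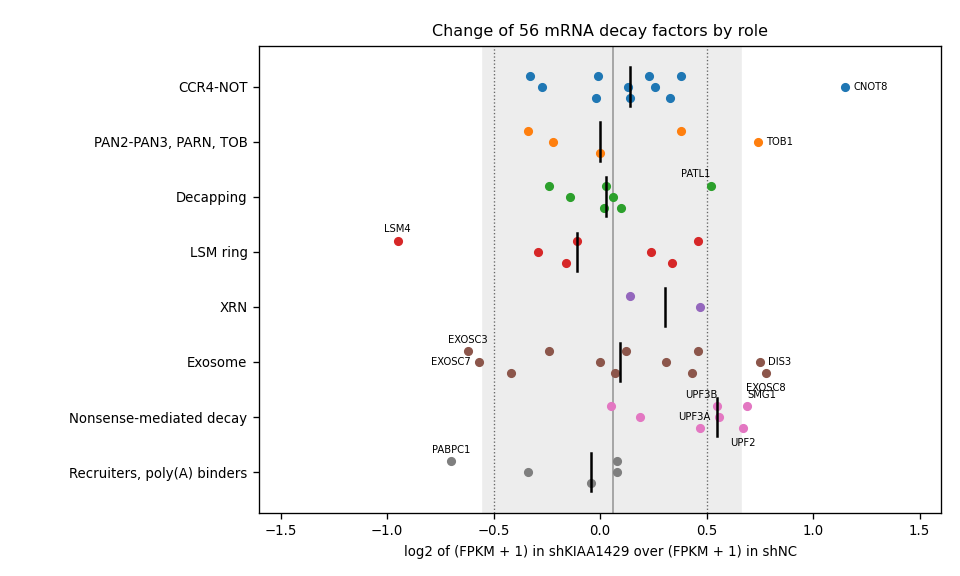
Each point is 1 decay factor, placed by its log2 change (horizontal axis) in its role group (rows). Black bars are group medians, the grey line is the median of all genes (0.06), the grey band holds 90% of all genes and dotted lines mark 0.5 in either direction. CNOT8 at 1.15 and LSM4 at -0.95 stand farthest out, and all 7 nonsense-mediated decay factors lie above 0.

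In absolute terms the levels spanned 2 orders of magnitude. PABPC1 and ZFP36L1 were the most abundant, at 268 and 173 FPKM with shNC and at 164 and 169 FPKM with shKIAA1429, so that ZFP36L1 was the higher of them in the second library. At the other end stood the decapping enzyme DCP2, at 1.29 and 0.939 FPKM, and the exonuclease XRN1, at 1.37 and 2.29 FPKM. These enzymes of the 5′ route had the lowest mRNA levels of the set in both libraries. The order of the 56 levels was largely shared between the libraries, with a Spearman rho of 0.93 across genes (a description, since genes are not independent replicates). The members together summed to 1041 FPKM with shNC and 992 FPKM with shKIAA1429, and PABPC1 alone accounted for more than that difference.

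**Figure D2:**
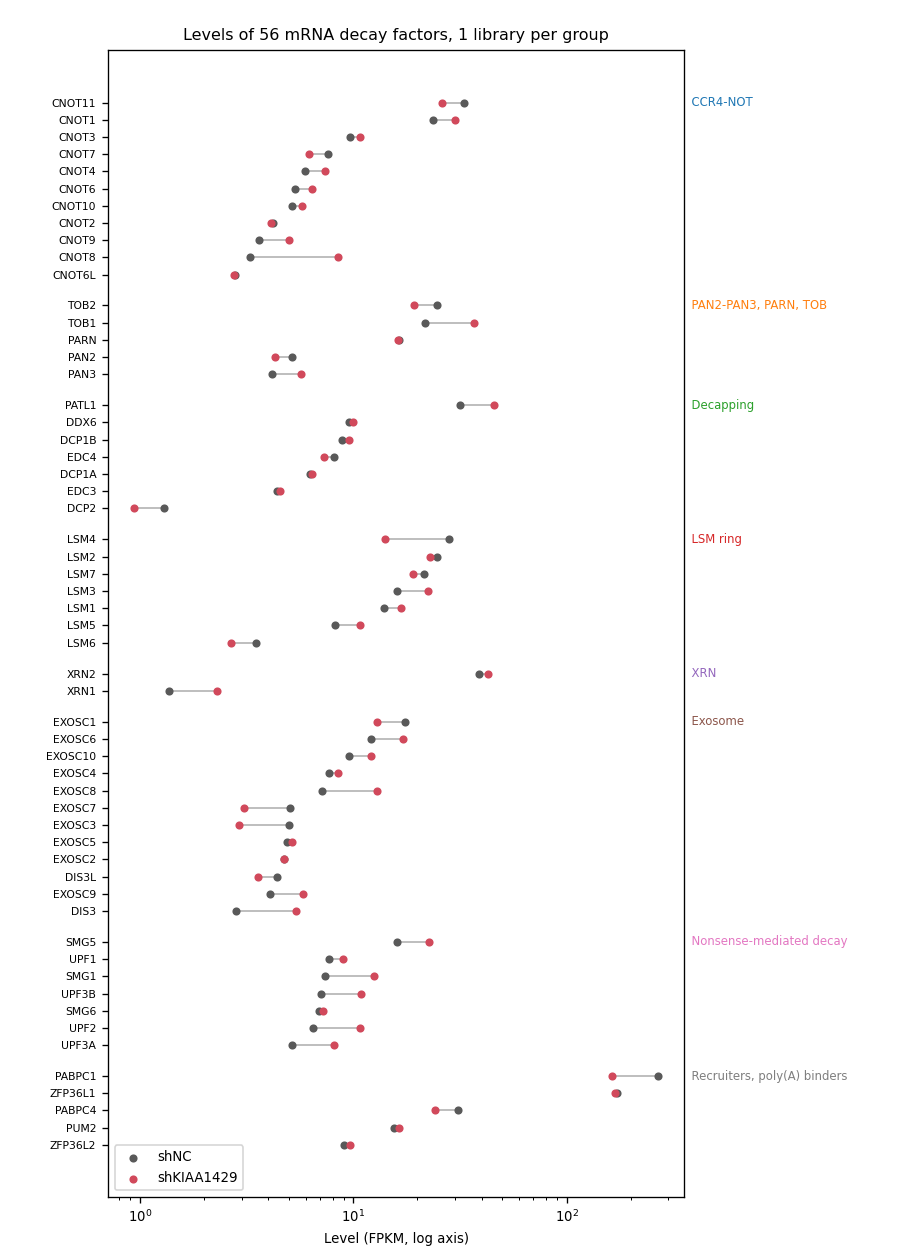
Level of each decay factor in FPKM (log axis) in the shNC library (grey) and the shKIAA1429 library (red), ordered within role groups by the control level. A line joins the values of 1 gene, and there is 1 library per group. Most pairs lie close together. CNOT8, DIS3, EXOSC8, TOB1, SMG1, UPF2, XRN1, UPF3A and UPF3B are displaced to the right and LSM4, EXOSC3, EXOSC7 and PABPC1 to the left.

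The CCR4-NOT complex carries 2 kinds of deadenylase, CNOT6 or CNOT6L and CNOT7 or CNOT8, on the scaffold CNOT1. CNOT8 was at 3.29 FPKM with shNC and at 8.52 FPKM with shKIAA1429, 2.59 times as high and a log2 change of 1.15. It ranked 10593 of 10708 genes from the lowest change. The position of CNOT8 in the files is chromosome 5, bases 154237113 to 154256353 (GRCh37). The listed gene that overlaps it, FAXDC2, is on the other strand and stood at 0.651 and 0.669 FPKM. Its close relative CNOT7, which takes the same place in the complex, was at 7.64 and 6.18 FPKM (log2 change -0.27). CNOT8 was therefore the less abundant of the pair in the control library and the more abundant one in the shKIAA1429 library. None of the 75-base windows of the longest CNOT8 transcript was found in a transcript of another gene, and for CNOT7 0.395% of windows were.

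The rest of CCR4-NOT stayed within 0.5, as did most of all genes. With CNOT8 counted, 9.09% of the subunits were higher by more than 0.5, beside 9.92% of all genes. The share lower was 0%, beside 6.12%. CNOT6 was at 5.32 and 6.41 FPKM with shNC and shKIAA1429, and CNOT6L, the least abundant subunit in both libraries, was at 2.78 and 2.76 FPKM. The scaffold CNOT1 was at 23.6 and 29.9 FPKM (log2 change 0.33). CNOT11, which together with CNOT10 forms a side module, was the most abundant subunit in shNC at 33.0 FPKM and was at 26.0 FPKM in shKIAA1429 (log2 change -0.33). CNOT2 and CNOT3, which form the module at the end of the scaffold, changed by -0.02 and 0.14, and CNOT9, which binds recruiting proteins, by 0.38. The ubiquitin ligase CNOT4 changed by 0.26 and CNOT10 by 0.13. The median over the 11 subunits was 0.14, and it was 0.08 with the trend on GC content and length removed, which put CNOT7 at -0.56. Of the 11 subunits 7 were higher (63.6%, beside 57.3% of all genes) and 4 were lower.

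Among the other deadenylases, PAN2, the catalytic partner of PAN2-PAN3, was at 5.15 and 4.29 FPKM and PAN3, its adaptor, at 4.14 and 5.71 FPKM, log2 changes of -0.22 and 0.38. PARN, a separate poly(A)-specific ribonuclease, was at 16.3 and 16.2 FPKM. TOB1 and TOB2, antiproliferative adaptors that tether CNOT7 or CNOT8 to poly(A)-binding protein, moved apart. TOB1 was at 21.6 FPKM with shNC and 36.7 FPKM with shKIAA1429 (log2 change 0.74), and TOB2 was at 24.7 and 19.3 FPKM (-0.34).

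The shares of related genes were followed in 8 pairs, chosen after the values had been seen. CNOT8 made up 30.1% of the summed FPKM of CNOT7 and CNOT8 with shNC and 58.0% with shKIAA1429, while the sum went from 10.9 to 14.7 FPKM. TOB1 made up 46.7% and 65.5% of the TOB pair. DIS3 made up 39.1% and 60.3% of its pair with DIS3L, whose sum was 7.19 and 8.97 FPKM. In these 3 pairs the order of the levels was reversed between the libraries. In the other 5 pairs the share of the first gene differed by less than 5 percentage points, for example 42.2% and 42.7% for UPF3A beside UPF3B.

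**Figure D3:**
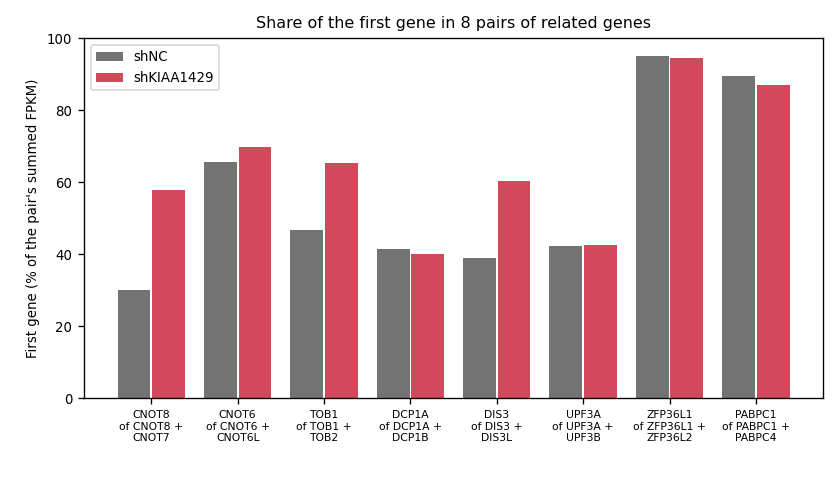
Share of the first-named gene in the summed FPKM of 8 pairs of related genes (vertical axis, percent) in the shNC library (grey bars) and the shKIAA1429 library (red bars), 1 library each. CNOT8, TOB1 and DIS3 cross from below to above 50%, from 30.1% to 58.0%, 46.7% to 65.5% and 39.1% to 60.3%.

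Of the 7 decapping genes, 6 stayed within 0.5, as did most of all genes. The share higher by more than 0.5 was 14.3%, beside 9.92% of all genes. The share lower was 0%, beside 6.12%. The enzyme DCP2 had a log2 change of -0.24, or -0.54 with the trend on GC content and length removed, at the lowest level of all members. Its activators DCP1A and DCP1B were at 6.27 and 8.87 FPKM with shNC and at 6.38 and 9.56 FPKM with shKIAA1429. The enhancers of decapping EDC3 and EDC4 changed by 0.03 and -0.14, and the helicase DDX6 by 0.06. PATL1, a platform that joins decapping factors to the LSM ring, passed 0.5. It was at 31.6 FPKM with shNC and 45.9 FPKM with shKIAA1429. Its log2 change was 0.52, and 0.46 once centred on the median of all genes.

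The LSM1 to LSM7 ring binds the shortened 3′ end and stimulates decapping, and LSM2 to LSM7 also sit with LSM8 on U6 small nuclear RNA. LSM4 was the outlying subunit. It was at 28.1 FPKM with shNC, the highest level of the ring, and at 14.1 FPKM with shKIAA1429, or 50.0% of the control. Its log2 change of -0.95 was the lowest of the 56 members and ranked 118 of 10708 genes from the lowest. In GRCh37 the files place LSM4 at bases 18417040 to 18434084 of chromosome 19, where it overlaps 0 other listed genes. The other 6 subunits lay between -0.29 (LSM6, at 3.49 and 2.68 FPKM the least abundant) and 0.46 (LSM3, at 16.0 and 22.4 FPKM). LSM2 and LSM7 changed by -0.11 and -0.16, and LSM1 and LSM5 by 0.24 and 0.34. LSM4 was thus at 1.75 times the ring's median level with shNC and at 0.839 times with shKIAA1429.

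Of the 5′ exonucleases, XRN2, which acts in the nucleus at transcription ends, was at 38.9 and 42.9 FPKM, a log2 change of 0.14. XRN1, which acts in the cytoplasm, changed by 0.47. With a pseudocount of 0.1 in place of 1 the value for XRN1 was 0.70, past 0.5, and with the trend on GC content and length removed it was 0.18.

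The exosome core is a ring of EXOSC4 to EXOSC9 with a cap of EXOSC1 to EXOSC3, and DIS3, DIS3L or EXOSC10 supply its catalysis. Its members moved in both directions. EXOSC8 went from 7.14 to 12.9 FPKM (log2 change 0.78) and DIS3 from 2.81 to 5.41 FPKM (0.75). EXOSC3 went from 4.99 to 2.90 FPKM (-0.62) and EXOSC7 from 5.04 to 3.06 FPKM (-0.57). The cap subunit EXOSC1, at 17.5 FPKM the highest of the group in shNC, was at 12.9 FPKM in shKIAA1429, a log2 change of -0.42. EXOSC6 and EXOSC9 of the ring changed by 0.46 and 0.43, and EXOSC2, EXOSC4 and EXOSC5 stayed between 0.00 and 0.12. EXOSC10, the nuclear catalytic subunit, was at 9.53 and 12.1 FPKM (0.31), and DIS3L, the cytoplasmic relative of DIS3, at 4.38 and 3.56 FPKM (-0.24).

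Beside EXOSC8, the gene ALG5 overlaps it on the other strand and was likewise higher, at 3.50 and 6.35 FPKM. Whether reads of ALG5 were counted for EXOSC8 was not tested. EXOSC7 overlaps CLEC3B on the same strand, which stood at 0.410 and 0.695 FPKM, and the division of reads between them was not tested. The genes on the other strand of EXOSC3, TRMT10B and DCAF10, changed by 0.07 and 0.27.

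In nonsense-mediated decay all 7 members were higher with shKIAA1429, as were 57.3% of all genes. Their median log2 change was 0.55 beside 0.06 for all genes, and 4 of 7 passed 0.5 (57.1%, beside 9.92% of all genes). SMG1, the kinase that phosphorylates UPF1, went from 7.38 to 12.5 FPKM (log2 change 0.69). UPF2, the bridge between UPF1 and the UPF3 proteins, went from 6.46 to 10.8 FPKM (0.67). UPF3A and UPF3B, which connect the machinery to exon junctions, went from 5.18 to 8.10 FPKM (0.56) and from 7.08 to 10.9 FPKM (0.55). The adaptor SMG5, the most abundant of the group, was at 16.0 and 22.6 FPKM (0.47). The helicase UPF1 was at 7.69 and 8.93 FPKM (0.19), and the endonuclease SMG6 at 6.94 and 7.22 FPKM (0.05). These last 3 stayed within 0.5, and SMG6 lay just below the median of all genes.

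With the trend on GC content and transcript length removed, all 7 still lay above 0, but the median was 0.41, and UPF2, UPF3B and SMG1 were at 0.40, 0.42 and 0.48, which left UPF3A at 0.54 as the member past 0.5. Near-copies limit the values of 2 of these genes. For UPF3A 32.8% of the 75-base windows of its longest coding transcript were found in transcripts of other genes, mostly the pseudogene UPF3AP2, and for SMG1 14.0% were shared with 29 genes that include its pseudogenes. How the authors' software divided such reads is not given in the sources used here. UPF2 and UPF3B shared 0 windows with other genes.

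Since UPF2, UPF3A, UPF3B and SMG1 were higher together, their promoters are shown. Each runs from 250 bases before to 50 bases after the first start that RefSeq lists (GRCh38.p14), written 5′ to 3′ along the gene. Capitals mark 3 motifs, searched on both strands: the E-box CACGTG, the core CCGGAA of sites for ETS factors, and the CCAAT box CCAAT.

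UPF2 (chr10:12043121-12043420, minus strand): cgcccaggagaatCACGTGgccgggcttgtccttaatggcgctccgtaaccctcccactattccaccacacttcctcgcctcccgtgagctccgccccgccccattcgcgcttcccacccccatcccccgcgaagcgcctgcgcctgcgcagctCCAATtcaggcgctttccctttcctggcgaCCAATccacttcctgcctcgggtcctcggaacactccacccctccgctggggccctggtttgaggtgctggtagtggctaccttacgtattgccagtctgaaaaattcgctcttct
UPF3A (chr13:114281351-114281650, plus strand): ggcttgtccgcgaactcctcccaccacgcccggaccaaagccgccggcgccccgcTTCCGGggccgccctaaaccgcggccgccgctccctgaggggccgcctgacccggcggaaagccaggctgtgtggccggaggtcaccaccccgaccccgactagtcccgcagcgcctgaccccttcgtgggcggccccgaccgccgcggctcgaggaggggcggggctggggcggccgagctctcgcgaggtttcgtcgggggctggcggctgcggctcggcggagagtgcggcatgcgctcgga
UPF3B (chrX:119852914-119853213, minus strand): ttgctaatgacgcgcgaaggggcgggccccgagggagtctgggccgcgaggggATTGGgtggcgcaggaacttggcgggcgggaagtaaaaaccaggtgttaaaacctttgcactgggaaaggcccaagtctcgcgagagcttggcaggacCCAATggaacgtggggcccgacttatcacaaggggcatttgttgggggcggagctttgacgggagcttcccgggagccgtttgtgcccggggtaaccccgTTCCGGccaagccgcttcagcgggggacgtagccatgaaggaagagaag
SMG1 (chr16:18926359-18926658, minus strand): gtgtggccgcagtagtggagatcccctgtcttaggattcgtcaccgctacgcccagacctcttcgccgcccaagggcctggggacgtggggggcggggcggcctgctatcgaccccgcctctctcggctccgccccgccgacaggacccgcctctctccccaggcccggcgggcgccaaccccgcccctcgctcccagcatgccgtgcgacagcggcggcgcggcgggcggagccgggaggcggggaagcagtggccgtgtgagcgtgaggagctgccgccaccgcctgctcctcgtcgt

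The E-box, a motif that MYC-MAX dimers bind, was found in the promoter of UPF2 only among these 4, and in 4 of the 47 members with a RefSeq promoter (CNOT4, EXOSC5, UPF2 and XRN2). That is 8.51%, beside 7.43% of 27305 RefSeq promoters, the first listed of each gene. These promoters were not limited to the 12014 genes listed in the 2 libraries, so the shares in this paragraph compare unlike sets of genes. MYC itself was at 28.5 FPKM with shNC and at 4.53 FPKM with shKIAA1429, and its part in any of these values was not tested. The ETS core stood in UPF3A and UPF3B and in 14 of 47 members (29.8%, beside 17.6% of all promoters), and the CCAAT box in UPF2 and UPF3B and in 20 of 47 (42.6%, beside 35.7%). The SMG1 promoter held 0 of the 3 motifs. No letters were therefore shared by all 4 promoters among those searched, and a match of letters does not show that a factor was bound.

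Among the recruiters and poly(A)-binding proteins, PABPC1 stood apart. This major cytoplasmic coat of the poly(A) tail had the highest level of all members with shNC, 268 FPKM, and was at 164 FPKM with shKIAA1429, or 61.3% of the control and a log2 change of -0.70. It ranked 280 of 10708 genes from the lowest change. Its relative PABPC4 was at 31.1 and 24.3 FPKM (-0.34). Of the windows of PABPC1, 3.66% were found in other genes, among them its near-copy PABPC3. ZFP36L1 and ZFP36L2, which recruit CCR4-NOT to AU-rich elements, changed by -0.04 and 0.08, and PUM2, which binds Pumilio elements, by 0.08. The last of these was at 15.5 and 16.4 FPKM, and ZFP36L2, the least abundant of the group, at 9.09 and 9.66 FPKM.

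To see whether neighbouring factors of the same pathways moved alike, 90 further genes of mRNA decay in 8 lists were examined, of which 84 had a mean of at least 1 FPKM. Of these, 4 were higher and 4 were lower by more than 0.5, 4.76% in each direction, beside 9.92% and 6.12% of all genes. None of them passed 1.5. The median was 0.12, and 0.04 with the trend on GC content and length removed. The 15 other factors of nonsense-mediated decay and the exon junction, among them SMG8, SMG9, EIF4A3 and the release factors ETF1 and GSPT1, had a median of 0.09 (0.05 with the trend removed), and 0 passed 0.5. In the 17 exosome cofactors the median was 0.23, and 16 were higher (94.1%, beside 57.3% of all genes). With the trend on GC content and length removed the median was 0.08, and 11 of the 17 were higher. RBM7, which guides the nuclear exosome, was at 2.58 and 5.30 FPKM, a log2 change of 0.82, or 0.53 with the trend removed.

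Deadenylase partners held the furthest values. BTG2, an antiproliferative relative of the TOB proteins that also binds CNOT7 and CNOT8, was at 25.1 FPKM with shNC and at 57.2 FPKM with shKIAA1429 (log2 change 1.16). NOCT, a relative of CNOT6, went from 2.63 to 5.18 FPKM (0.77), and NANOS1 from 1.78 to 0.735 FPKM (-0.68). In the BTG and TOB family of 5 genes, 4 were higher (BTG1, BTG2, BTG3 and TOB1) and TOB2 was lower. That is 80.0% higher, beside 57.3% of all genes. Among decapping and P-body factors, PNRC1 went from 22.7 to 38.7 FPKM (0.74) and NUDT16 from 5.28 to 3.20 FPKM (-0.58). ZFP36, the founding member of the ZFP36L1 family, went from 23.7 to 14.7 FPKM (-0.66). Of the m6A readers that recruit decay factors, YTHDF3 went from 5.57 to 3.34 FPKM (-0.60), while YTHDF2 and YTHDF1 changed by 0.22 and 0.13. The microRNA silencing and other poly(A)-binding lists had 0 genes past 0.5.

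**Figure D4:**
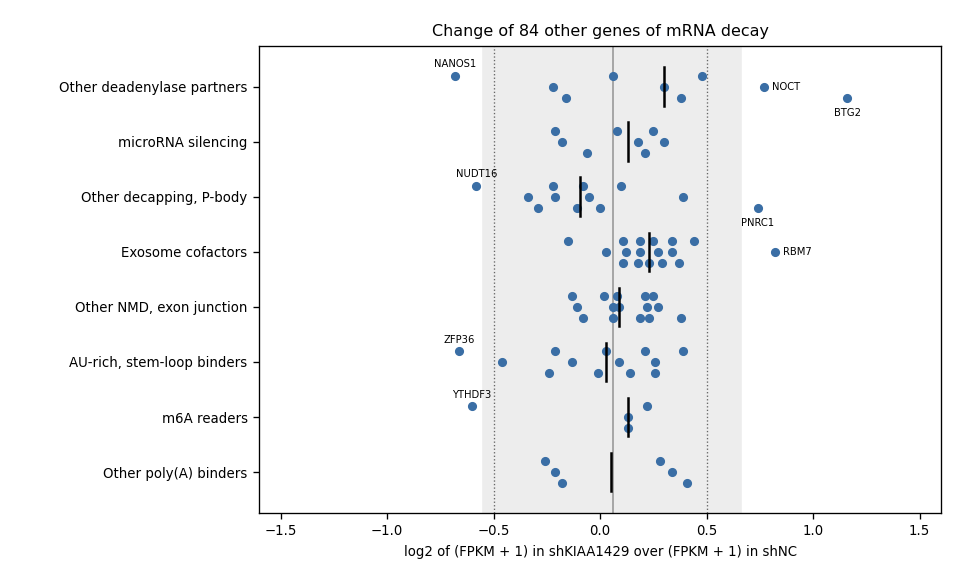
Log2 change (horizontal axis) of 84 further genes of mRNA decay in 8 lists (rows), with black bars for list medians, the grey line and band for the median and 90% of all genes and dotted lines at 0.5. BTG2 at 1.16 lies farthest to the right, 16 of the 17 exosome cofactors lie above 0 (11 with the trend on GC content and length removed, which is not plotted), and the 15 nonsense-mediated decay and exon junction factors all lie within 0.5.

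GC content went along with the change over the whole table. Across 10648 genes with an annotated transcript, Spearman rho was -0.30 between the log2 change and the GC content of the longest coding transcript and 0.19 between the change and its length. Across the 56 members the values were -0.27 and 0.19. All are descriptions across genes that share 2 libraries. The members had a median GC content of 45.6%, beside 48.5% of all genes, and a median transcript of 3730 bases, beside 3368. The trend on GC content and length was removed jointly, so the part of either alone is not given. After this CNOT8 was at 1.11, EXOSC8 at 0.78, TOB1 at 0.55, UPF3A at 0.54 and DIS3 at 0.53. Below 0, LSM4 was at -0.89, PABPC1 at -0.71, EXOSC3 at -0.70 and EXOSC7 at -0.52. The other 4 of the 13 members past 0.5 came inside it, SMG1 at 0.48, PATL1 at 0.43, UPF3B at 0.42 and UPF2 at 0.40. EXOSC8, UPF3A and DIS3 lie on chromosome 13, as does PAN3, and all 4 were higher. Before the trend was removed, 69.1% of the 181 genes of that chromosome were higher, beside 57.3% of all genes. Of the 181, 17.1% were higher by more than 0.5, beside 9.92% of all genes. The part of the chromosome in these values was not tested.

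**Figure D5:**
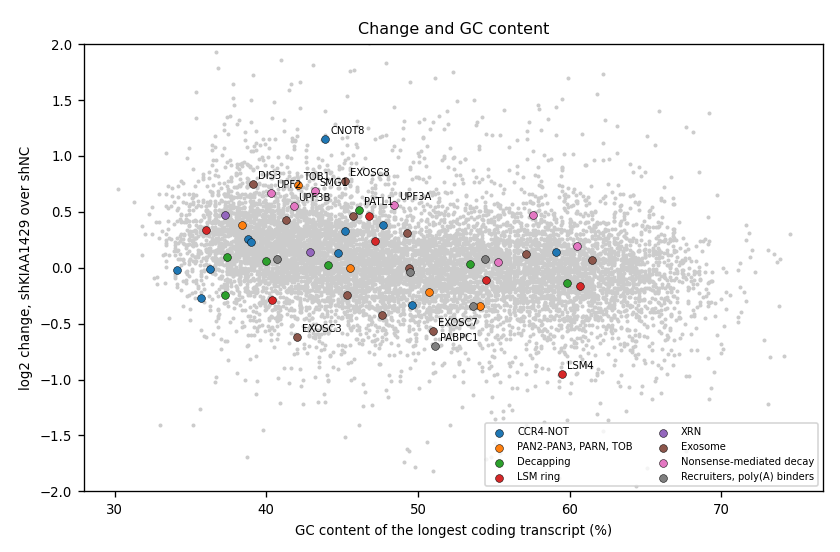
Log2 change (vertical axis) against GC content of the longest coding transcript in percent (horizontal axis) for all genes (grey) and the 56 decay factors (coloured by role group). The vertical axis ends at 2 in either direction, which leaves out 25 of the 10648 genes. Members of low GC content lie higher on the whole, with LSM4 low at a GC content of 59.5% and CNOT8 high at 43.9%.

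The letters GGACT are a common form of the m6A consensus. On the sense strand of the longest coding transcript the members held a median of 0.84 copies per kilobase, beside 0.93 for all genes, and rho with the log2 change was 0.11 across the members and -0.10 across all genes. Copies ranged from 0, as in CNOT3 and CNOT11, to 13 in PAN2. For 6 of the members past 0.5, chosen as examples after their values had been seen, the copy nearest to the stop codon, where m6A is often found, is shown with 8 bases on either side, in capitals (GENCODE 29 transcripts on GRCh38, written as the DNA letters of the mRNA strand).

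CNOT8 (chr5:154875374-154875394, plus strand): gaggatgtGGACTctgcccag
DIS3 (chr13:72768822-72768842, minus strand): gtctccgtGGACTgaataaac
SMG1 (chr16:18808998-18809018, minus strand): tcagaaatGGACTgaaaatgg
TOB1 (chr17:50862262-50862282, minus strand): gttaagagGGACTgaaatagt
LSM4 (chr19:18307063-18307083, minus strand): tcatgctgGGACTgacagcct
EXOSC3 (chr9:37780659-37780679, minus strand): atataggtGGACTtttttaca

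In CNOT8 this copy is coding and lies in exon 8 of 8, with its A 55 bases before the last base of the stop codon. In DIS3 it is coding as well, in exon 14 of 21, with its A 1041 bases before the last base of the stop codon. In EXOSC3 it lies in the 3′ UTR, with its A 10 bases past the stop codon, and in LSM4, SMG1 and TOB1 it lies in the 3′ UTR at 391, 561 and 708 bases past it. SMG1 held 12 copies in 16115 bases, of which 10 were coding, while the 3 copies of LSM4 were all in its 3′ UTR. These examples all held the letters, the higher genes and the lower ones alike, so they cannot show whether the letters go with a direction. Whether any of these adenosines carried m6A was not measured.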

How the data were processed

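RNA-seq of ACHN cells was taken from 2 libraries, shKIAA1429 and shNC, grouped by their GEO labels. The authors deposited FPKM per gene. The submitters' processing notes list cutadapt 1.9, HISAT2 2.0.4, StringTie 1.3.4d, DESeq2 and edgeR, without their roles. The build is not given in the sources used here, but the positions in the files are on GRCh37 with GENCODE identifiers. Only protein-coding genes at or above 0.500 FPKM in a library were listed.

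Log2 changes used a pseudocount of 1 and genes with a mean of at least 1 FPKM. Limits were 1.5, from the study's methods, and 0.5. No test was run, with 1 library per group. Length, GC content, GGACT counts and shared 75-base windows were taken from each gene's longest coding transcript (GENCODE 29). Promoters came from RefSeq (GRCh38.p14). The trend on GC content and length was the median of 10 by 10 bins. Genes named were members past 0.5, catalytic subunits and the extremes of level in each group, and up to 5 further genes per list past 0.5, with the remaining members added. Members, lists and limits were chosen with earlier results of these data known. The step that computes changes was tested on simulated data. Scripts ran in Python 3.11.15 with pandas 2.3.3, NumPy 2.4.6 and SciPy 1.17.1, and plots were made with matplotlib 3.10.9.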

Additional observations from a re-analysis of the deposited data

How the results depend on the processing

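The median change of the members lay between 0.02 and 0.27 under 9 alternatives, and 0 members passed 1.5 in any of them. With a limit of 1 there was 1 higher member, CNOT8. Rescaling each library to a sum of 1000000, which moved the median of all genes up by 0.18, gave 19 members higher by more than 0.5 in place of 9, beside 23.9% of all genes, with 4 lower beside 4.59%, and the sign differed for 7 members. Centring on the median of all genes left UPF3B and PATL1 inside 0.5, and a pseudocount of 0.1 put XRN1 and EXOSC9 past it. Removing the GC content and length trend gave 5 higher members, with UPF2, UPF3B, SMG1 and PATL1 inside 0.5, and 6 lower ones, with DCP2 and CNOT7 added, beside 6.79% and 6.74% of all genes. A mean of at least 5 FPKM left 41 members and 2 of the 4 lower ones, by fewer genes. No member past 0.5 changed sign under any alternative. No paired analysis was possible because each condition has a single library. FPKM without counts gives no interval for the low genes.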
